A study of Mus musculus with 5 samples.

Results

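The transcripts of enzymes that write or erase modifications on histone lysines were followed by SLAMseq in cultured mouse cardiac fibroblasts (CF). Members were chosen by name alone: every gene whose symbol starts with Kmt, Setd, Kat, Kdm or Hdac and goes on with a digit. The rule found 53 of the 20365 gene names in the tables, with 132 of the 40428 distinct 3′ UTR intervals. Of these genes, 24 were counted as writers by name, comprising 16 lysine methyltransferases (8 *Kmt* and 8 *Setd* genes) and 8 lysine acetyltransferases (*Kat*). The other 29 were erasers, comprising 18 lysine demethylases (*Kdm*) and 11 histone deacetylases (*Hdac*). Where a gene had several intervals, the one best read in the labeled libraries (by mean CPM) stood for it. Of the 53 intervals used, 43 lay within the last exon of the gene and 10 overlapped an exon.

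CF came from hearts of adult healthy male C57Bl/6J wildtype mice, taken by Langendorff perfusion with collagenase and cultured to confluency. They were incubated for 12 h with 0.1 mM 4-thiouridine (S4U; 3 labeled libraries) or for the same time without it (2 unlabeled libraries), and the RNA of both groups was alkylated with iodoacetamide. In SLAMseq an alkylated S4U appears as C in place of T, so the T>C conversion rate, meaning conversions per covered T position, is higher the more of a transcript was synthesised in the labeling period. The study's text counts 3 CF preparations, each sample pooled 2 culture wells, and the labels do not say whether libraries with the same number share a preparation, so p-values measure only the spread between these libraries. The cells are a cultured population at 1 time point, and in such bulk libraries more cells expressing a gene and more RNA per cell cannot be told apart.

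Histone lysines carry methyl and acetyl groups that change how DNA is packed and which proteins bind it. Acetyltransferases and deacetylases set acetylation, which marks active promoters and enhancers, while each methyltransferase and demethylase acts on a few lysines whose methylation marks either active or silent chromatin. Several enzymes named by the same convention act mainly on other substrates, such as *Setd3*, which methylates actin, *Hdac6*, which deacetylates tubulin, and *Hdac10*, which deacetylates polyamines. Class IIa deacetylases (*Hdac4*, *Hdac5*, *Hdac7*, *Hdac9*) are known in the heart as signal-dependent partners of MEF2 transcription factors.

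On 1 interval per gene, 506045 to 1842785 reads were counted per library, and the 53 members took 0.216 to 0.271% of them. All 9 fibroblast markers were read in every library and summed to 33748 to 44796 CPM of counted reads, against 57.7 to 105 CPM for 7 macrophage markers, 96.4 to 214 for 5 endothelial, 0.634 to 8.03 for 5 cardiomyocyte, 3.01 to 13.8 for 4 smooth muscle and pericyte and 1.63 to 7.90 for 4 epicardial markers. The labeled library and the unlabeled library numbered 1 stood apart from the other 3. Their read counts differed from those of their own group by a chi-square per degree of freedom of 12.2 to 18.2, compared with 2.20 between labeled replicates 2 and 3. With only 2 unlabeled libraries, this measure does not tell which of them differs. In CPM of counted reads, both libraries numbered 1 lay above the other 3 in 30% of 9806 genes and below them in 22.7%. The deposited CPM divides by a number of reads 7.58 to 28.9 times larger than the counted reads, and 46 members had their lowest labeled CPM in replicate 3. Levels are therefore also given as CPM of counted reads, which divides by the reads counted on 1 interval per gene. QuantSeq gives 1 tag per transcript end, so neither scale is divided by length.

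S4U raised the T>C conversion rate of nearly every member that could be tested. Reads covered a T in every library for 50 of the 53 members, and 48 of these had a higher rate in the labeled libraries (beta-binomial likelihood-ratio test, two-sided, unadjusted p below 0.05). Over all genes the share called higher was 95.2%, close to that of the members. No member was called lower. Benjamini-Hochberg adjustment over all intervals also left 48 members called, with 95% of all genes. Every labeled rate lay above both unlabeled rates in 46 of the 50 (90.4% of all genes). In 21 members no conversion was seen in either unlabeled library. The members not called, *Hdac9* and *Setd4*, had at most 3 reads in any labeled library. *Setd4* had 0 conversions in 7, 23 and 15 covered T positions, which allow rates of up to 0.429, 0.130 and 0.200, and *Hdac9* had 3, 0 and 0 conversions in 44, 65 and 78. *Kdm2b* and *Kmt5c* lacked a read in at least 1 labeled library and were not tested. *Kdm4d*, a demethylase known from testis, had a single read, in unlabeled replicate 2.

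Rates were compared among members covered at 500 or more T positions in each labeled library, which 15 members reached: 7 methyltransferases, 5 demethylases and 3 deacetylases. No acetyltransferase did. The median rate of the 15 was 0.0389, and that of all 3968 genes covered as deeply was also 0.0389, with quartiles at 0.0348 and 0.0423. Between these quartiles lay 9 members, with 3 above and 3 below. At a minimum of 100 covered T positions, 42 members had a median of 0.0385 against 0.0384 for 8403 genes, with 27 inside the quartiles, 8 above and 7 below. Single members differed more than the class medians did.

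**Figure D1:**
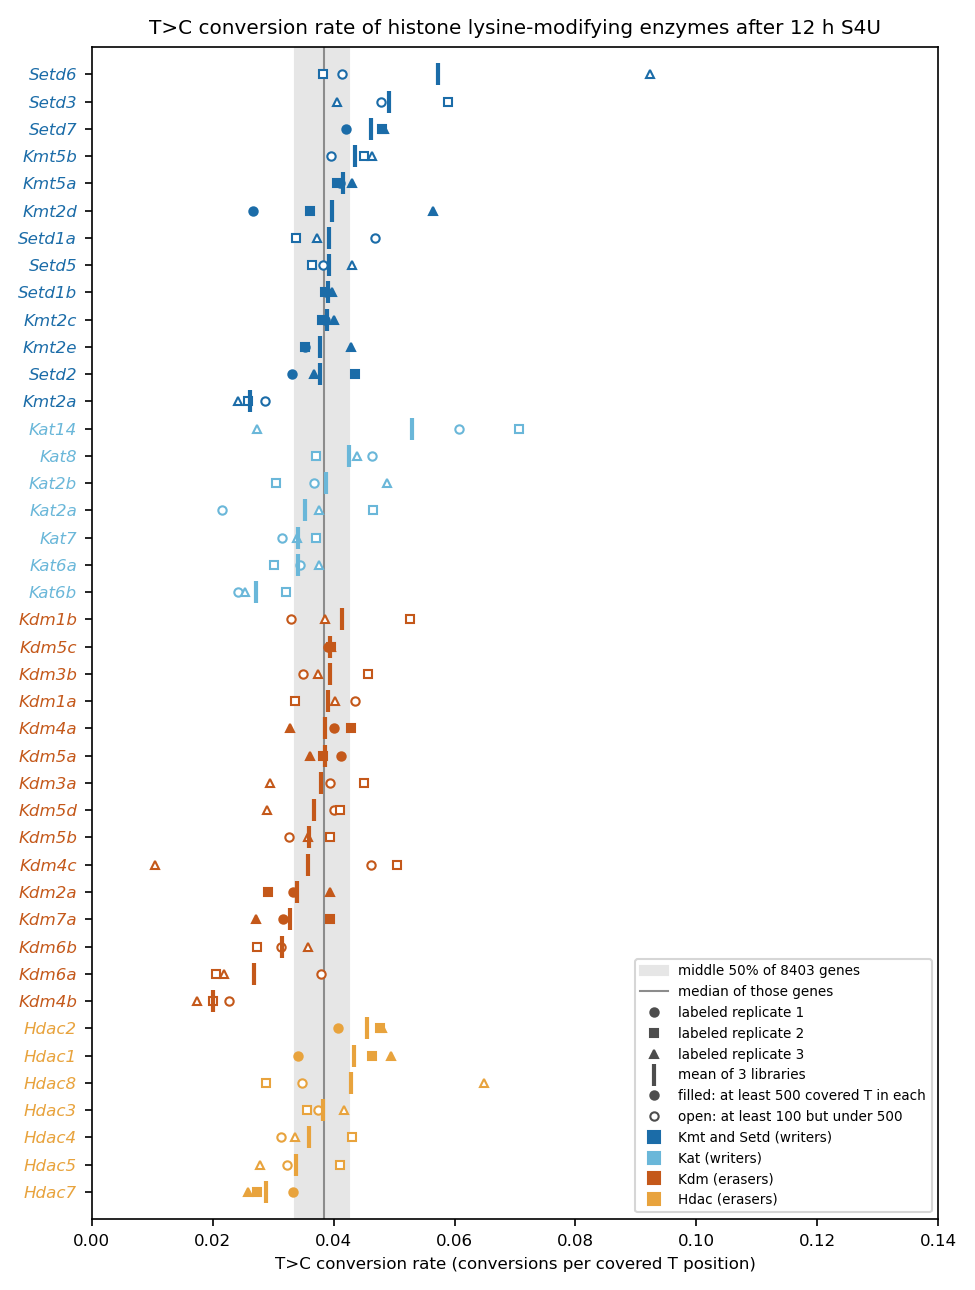
T>C conversion rate (horizontal axis, conversions per covered T position) of the 42 members covered at 100 or more T positions in each labeled library. Each symbol is 1 labeled library, the vertical stroke is the mean of the 3, filled symbols mark the 15 members with at least 500, and the grey band spans the quartiles of 8403 genes (0.0336 to 0.0425). Most means lie in the band; Of the filled members, *Setd7*, *Hdac2* and *Hdac1* lie right of it, and *Kdm7a* and *Hdac7* lie left of it.

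At this coverage, writers and erasers did not separate by rate. The 7 writers had a median rate of 0.0387, 0.0385 and 0.0428 in labeled replicates 1, 2 and 3. The 8 erasers had 0.0366, 0.0395 and 0.0377. Roles were assigned by name, and the writers' median in replicate 3 was the rate of *Kmt2e*, a SET-domain protein that binds methylated histone H3. Writers were higher in replicates 1 and 3 and lower in replicate 2, and the difference of the median rates, 0.00047, was smaller than its SD over the libraries (0.00302). The difference became -0.00119 without labeled replicate 3 and -0.000457 from conversions pooled over the libraries. Among the members with 1000 or more covered T positions, 5 writers had medians of 0.0388, 0.0385 and 0.0428 and 4 erasers 0.0367, 0.0360 and 0.0361. Writers were thus higher in each labeled library, again with *Kmt2e* as their median in replicate 3. By class, the medians at the minimum of 100 were 0.0393 for 13 methyltransferases, 0.0353 for 7 acetyltransferases, 0.0367 for 15 demethylases and 0.0382 for 7 deacetylases, all within the quartiles of all genes. Members are not replicates, and no test was made between the classes.

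**Figure D2:**
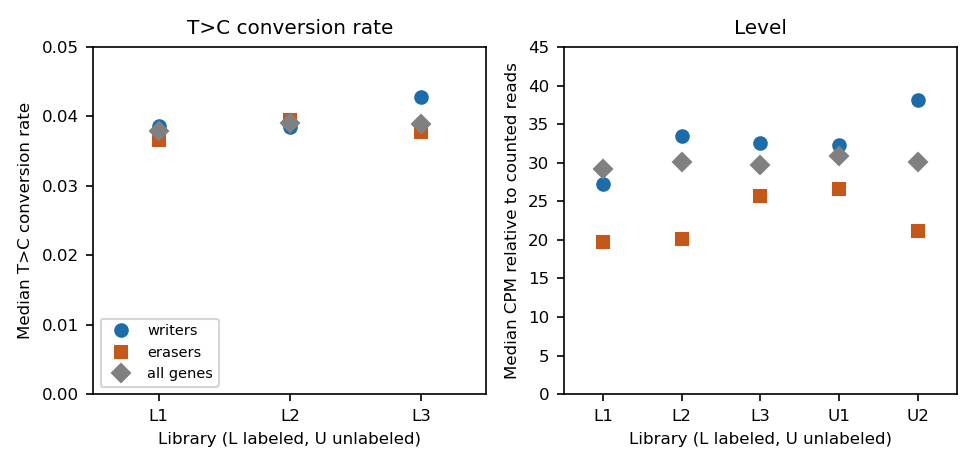
Median T>C conversion rate of the 7 writers and 8 erasers covered at 500 or more T positions (left, labeled libraries L1 to L3), and median level of all 24 writers and 29 erasers in CPM of counted reads (right, with unlabeled libraries U1 and U2). Diamonds give all genes as deeply covered (left) or read in every labeled library (right). The order of the rates changes between libraries, and the writers' level is above the erasers' in all 5.

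Among the methyltransferases, *Setd7* had the highest mean rate of the deeply covered members. *Setd7* (ENSMUSG00000037111.10) methylates histone H3 and several other proteins, and its interval is chr3:51422739-51428727 of GRCm39, minus strand. Its rate was 0.0420, 0.0480 and 0.0483 in the labeled libraries and 0.000275 and 0.000324 in the unlabeled ones. The mean of 0.0461 ± 0.00355 (SD, n = 3) was at percentile 91.9 of the 3968 genes. *Kmt5a* (chr5:124598762-124600374, plus strand), which adds the first methyl group to a lysine of histone H4, had 0.0411, 0.0405 and 0.0430, against 0.000204 and 0.000449 without S4U, and the ranges of both genes overlapped. *Setd1b* and *Kmt2c*, catalytic subunits of COMPASS complexes that methylate histone H3 at promoters and enhancers, were at the middle of all genes with 0.0390 ± 0.000641 and 0.0389 ± 0.00102. Of the 15, only *Kdm5c* had a smaller SD than these 2 genes.

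*Setd2*, which methylates histone H3 along transcribed genes, had rates of 0.0331, 0.0435 and 0.0368 and no conversion in 3939 covered T positions without S4U, which allows a rate of up to 0.000762. *Kmt2e*, a SET-domain protein that binds methylated histone H3, had 0.0353, 0.0353 and 0.0428. Its interval overlaps *Srpk2* on the other strand. Its level in CPM of counted reads was 229, 141 and 140 with S4U and 201 and 182 without. Both genes lay inside the quartiles, at percentiles 42.2 and 42.4.

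The COMPASS relatives *Kmt2a* and *Kmt2d*, set side by side as a pair, differed in how far their libraries spread. *Kmt2d* had 0.0266, 0.0362 and 0.0564, the widest spread of the 15, and the exact 95% binomial interval of replicate 1 (0.0200 to 0.0347) did not meet that of replicate 3 (0.0406 to 0.0760). Its level in CPM of counted reads was 57.7, 48.5 and 61.3 in the same libraries. *Kmt2a* (chr9:44714652-44719198, minus strand) was low in every library with 0.0286, 0.0259 and 0.0242, though on as few as 330 covered T positions. Its mean, 0.0262 ± 0.00220, lay below the lower quartile of all genes, and 26.7% of its reads carried a conversion, or 0.503 times the median of the deeply covered genes. A *Kmt2a* read covered 12.8 T positions on average, compared with 22.1 for *Kmt2d*, and *Gm48702* overlaps the *Kmt2a* interval on the other strand. The part of either in the low rate was not tested. In CPM of counted reads, *Kmt2a* was at 118, 66.1 and 49.4 with S4U and at 108 and 84.3 without. By rate, only labeled replicate 1 of *Kmt2d* lay within the labeled range of *Kmt2a*.

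Several means above the upper quartile came from fewer covered T positions: *Setd6* (0.0414, 0.0382 and 0.0923), *Setd3* (0.0478, 0.0589 and 0.0406), *Kmt5b* (0.0396, 0.0450 and 0.0463) and *Kmt2b* (0.0833, 0.0440 and 0.0257). The highest value of *Setd6* rested on 12 conversions in 130 covered T positions, and that of *Kmt2b* on 3 in 36.

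The acetyltransferases were read at low levels, with a median of 2.08 CPM and a highest mean of 3.85 CPM. Their rates at the minimum of 100 covered T positions ran from 0.0272 (*Kat6b*) to 0.0529 (*Kat14*). The paralogs *Kat6a* and *Kat6b*, catalytic subunits of complexes with BRPF proteins, had nearly the same level, 2.49 ± 0.924 and 2.59 ± 1.39 CPM. *Kat6a* had rates of 0.0344, 0.0302 and 0.0376. *Kat6b* had 0.0242, 0.0321 and 0.0254, with no conversion in 2035 covered T positions without S4U. The 2 ranges overlapped in replicate 2 of *Kat6b*. *Kat7*, the catalytic subunit of the HBO1 complex, had 0.0314, 0.0371 and 0.0340, and *Kat8*, which acetylates histone H4, had 0.0464, 0.0371 and 0.0440. *Kat2a* and *Kat2b*, paralogs of SAGA-type complexes, had 0.0353 ± 0.0126 and 0.0387 ± 0.00931.

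Among the demethylases, no deeply covered gene lay above the upper quartile. *Kdm5c*, which removes methyl groups from histone H3 at promoters, had 0.0392, 0.0396 and 0.0396, the smallest SD of the 15 (0.000272). Its rates without S4U were 0.00219 and 0.00300, above the library-wide 0.00111 and 0.000652. Its Y-linked paralog *Kdm5d* was read in every library of these male cells at 1.23 ± 0.690 CPM, with rates of 0.0401, 0.0410 and 0.0290. The last of these rested on 7 conversions in 241 covered T positions, and the other 2 lay close to *Kdm5c*. *Kdm5a* was at percentile 47.2 with 0.0413, 0.0382 and 0.0360. *Kdm4a*, which acts on methylated lysines of silent and transcribed chromatin, was at percentile 47.5 with 0.0400, 0.0429 and 0.0328.

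The 2 lowest of the deeply covered demethylases were *Kdm7a* (0.0316, 0.0394 and 0.0272; percentile 18.2) and *Kdm2a* (0.0333, 0.0291 and 0.0395; percentile 21.9). *Kdm7a* is a PHF8 relative that acts on silent chromatin, and *Kdm2a* binds CpG islands. Each had 1 labeled library between the quartiles of all genes. In CPM of counted reads, *Kdm2a* was at 85.0, 121 and 140 with S4U and at 62.4 and 138 without, and *Kdm7a* at 52.0, 62.8 and 43.5, then 53.7 and 49.2. The paralogs *Kdm6a* and *Kdm6b* both remove the methyl mark of Polycomb complexes, and *Kdm6a* is X-linked. *Kdm6a* had 0.0380, 0.0206 and 0.0219, and *Kdm6b* had 0.0313, 0.0274 and 0.0358, so the ranges of the paralogs overlapped. Their levels were 2.01 ± 0.994 and 3.12 ± 2.06 CPM. The lowest mean of a member with at least 100 covered T positions was that of *Kdm4b*, with 0.0227, 0.0201 and 0.0174 from 3, 7 and 2 conversions. Its unlabeled rates were 0.00625 and 0.00278, from 1 conversion each.

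The deacetylases lay on both sides of the gene distribution. The class I enzymes *Hdac1* and *Hdac2*, paired catalytic subunits of the NuRD, SIN3 and CoREST complexes, had mean rates at percentiles 80.9 and 89.6. *Hdac2* (ENSMUSG00000019777.18, chr10:36877556-36877884, plus strand) had 0.0407, 0.0477 and 0.0480 and no conversion in 8425 covered T positions without S4U, which allows a rate of up to 0.000356. *Hdac1* (ENSMUSG00000028800.17, chr4:129409897-129410401, minus strand) had 0.0341, 0.0464 and 0.0496, against 0 and 0.000473. The class IIa enzyme *Hdac7* (ENSMUSG00000022475.21, chr15:97690545-97691577, minus strand) had 0.0332, 0.0274 and 0.0259, against 0.00104 and 0.000428, and was the lowest of the 15 at 0.0288 ± 0.00388 (percentile 11.1). All labeled rates of *Hdac7* lay below all those of *Hdac1* and *Hdac2*, narrowly for *Hdac1* in replicate 1. A read covered 20.0 T positions on average in *Hdac7*, 26.3 in *Hdac1* and 28.8 in *Hdac2*. The Spearman correlation of rate with T positions per read was 0.261 across the 3968 genes and 0.007 across the 15 members. The part of T positions per read in this contrast was not tested. The *Hdac7* values rested on 2559 to 4452 covered T positions per library, and *Slc48a1* overlaps its interval on the other strand. The class IIa relatives *Hdac4* and *Hdac5* had 0.0360 ± 0.00619 and 0.0337 ± 0.00675, overlapping *Hdac7*, and the class I enzyme *Hdac3* had 0.0382 ± 0.00313.

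QuantSeq is designed to read transcript ends, and the ends of 4 intervals are shown with their poly(A) signal (AATAAA or ATTAAA) in capitals, 5′ to 3′ on the transcript strand of GRCm39, for *Hdac2* and *Setd7* with high rates, *Kmt2a* with a low rate and the Y-linked *Kdm5d*. Where within the intervals the reads lay was not examined. The windows are chr10:36877854-36877883 (plus) for *Hdac2*, chr3:51422742-51422771 (minus) for *Setd7*, chr9:44714661-44714690 (minus) for *Kmt2a* and chrY:943776-943805 (plus) for *Kdm5d*.
Hdac2: gtaattatctttATTAAAaaattgtacttg
Setd7: aacaatgcaagtATTAAAcaaaatatacaa
Kmt2a: gatagtttaattAATAAAcatgtcaagttt
Kdm5d: tttgttgttaaaAATAAAacagtatggtta
The signal letters of *Hdac2* and *Setd7* are ATTAAA and those of *Kmt2a* and *Kdm5d* are AATAAA. The last 50 bases of the interval held AATAAA in 33 of the 53 members (62.3%, compared with 60.3% of 20329 genes), and either signal in 41 (77.4%, compared with 73.5%). The *Hdac7* interval held neither in its last 50 bases.

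ATTTA, the core of AU-rich elements, which are known to shorten the life of some mRNAs, was counted on the transcript strand of each interval. It occurred in 14 of the 15 deeply covered members (93.3%) and in 77.9% of 3967 genes covered as deeply. The exception was *Hdac7*, which had the lowest mean rate of the 15. Longer intervals hold more matches by length alone, and the median length of the 15 was 1871 bases against 1462. Per kilobase, the density was 6.08 in *Hdac2* and 1.67 in *Setd7*, but also 6.51 in *Kdm6a* and 3.74 in *Kat6b*, whose mean rates were low. *Kdm6a* and *Kat6b* are not among the 15, with as few as 320 and 315 covered T positions in a labeled library. Windows from these 4 genes, with ATTTA in capitals, show members of high rate first and of low rate last: chr10:36877654-36877683 (plus) of *Hdac2*, chr3:51425030-51425059 (minus) of *Setd7*, chrX:18145545-18145574 (plus) of *Kdm6a* and chr14:21721051-21721080 (plus) of *Kat6b*.
Hdac2: ggcatggactgtATTTAttttcaaaatggc
Setd7: ggccatgtaatcATTTAcaacATTTAattg
Kdm6a: atcttgatgtaaATTTAcactATTTAtaaa
Kat6b: tttgttggcaccATTTATTTAaaaaaaaaa
Across the 15 members the Spearman correlation of rate with ATTTA per kilobase was 0.218, compared with 0.227 across the 3967 genes. The Pearson correlation was 0.481 across the 15 and 0.156 across the genes. Members share libraries and base composition, and these values are a description. The longer motif TTATTTATT was found in *Kmt5b* alone (1.89% of members, 6.51% of genes). The deposited T content equalled the count of T in GRCm39 for all 40380 intervals on reference chromosomes.

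Levels spanned a wide range. In deposited CPM of the labeled libraries, 4 members had a mean of at least 10 and 11 members lay below 1. The highest means were 20.7 ± 21.5 for *Setd7*, 17.1 ± 16.8 for *Kmt5a*, 15.7 ± 13.1 for *Kmt2e*, 12.4 ± 2.45 for *Hdac7*, 8.79 ± 3.44 for *Kdm2a* and 8.36 ± 4.86 for *Hdac2* (SD, n = 3). The first 3 of these overlapped across libraries, and their SDs were as large as the means or nearly so. Without labeled replicate 1 the means were 8.46 for *Setd7*, 7.57 for *Kmt5a* and 8.42 for *Kmt2e*, below the 12.0 of *Hdac7*. The median of all members was 2.41 CPM. Over members read in every labeled library it was 2.54 CPM, against 2.59 CPM for 11420 such genes.

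Writers as a group had a higher median level than erasers in every library. Their median deposited CPM was 3.60, 2.84 and 1.13 in labeled replicates 1, 2 and 3, and that of erasers was 2.60, 1.70 and 0.889. The ratio of the median levels, taken over gene means of the labeled libraries, was 1.5 with an SD of 0.204 over the libraries. In CPM of counted reads the medians of writers were 27.3, 33.5, 32.6, 32.3 and 38.2 (3 labeled, then 2 unlabeled libraries), and those of erasers were 19.7, 20.1, 25.7, 26.6 and 21.1. By class, the median in deposited CPM was 4.20 for methyltransferases, 2.08 for acetyltransferases, 1.91 for demethylases and 1.46 for deacetylases. Methyltransferases were highest in each library, with 57.1, 44.4, 43.5, 58.9 and 62.2 CPM of counted reads. Acetyltransferases (18.7, 28.9, 21.7, 14.7 and 29.1) and demethylases (22.8, 21.8, 27.7, 29.8 and 22.6) changed order between libraries. The ratio of writers to erasers is a description of these 53 genes, and it ranged from 1.19 to 1.79 when single labeled libraries were left out.

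**Figure D3:**
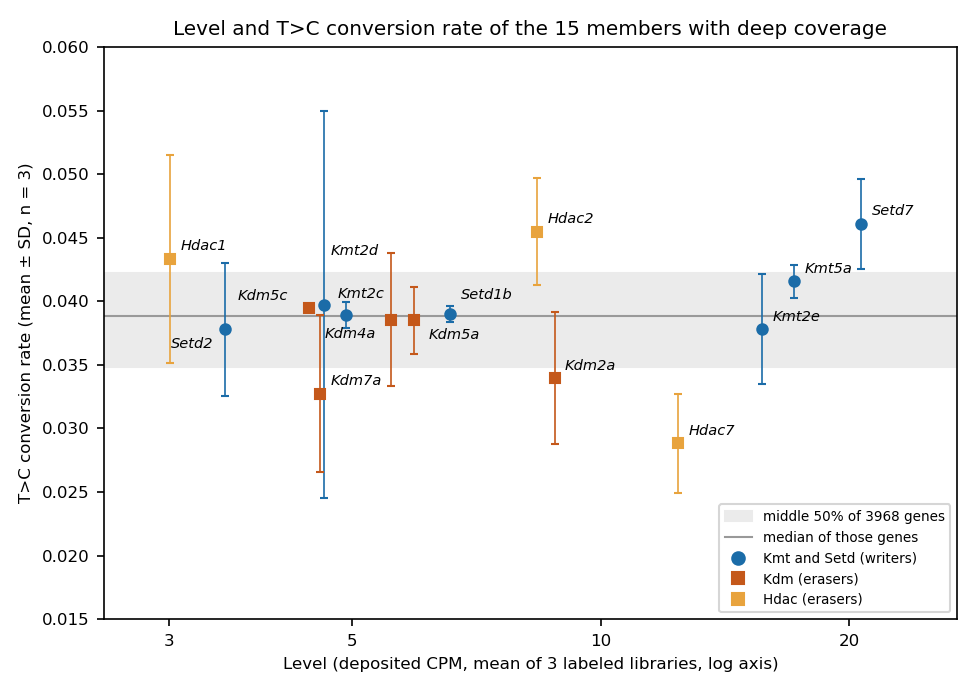
Mean level (horizontal axis, deposited CPM, log scale, SD not drawn) and T>C conversion rate (vertical axis, mean ± SD over 3 labeled libraries) of the 15 members covered at 500 or more T positions in each; circles are writers and squares are erasers. The grey band spans the quartiles of 3968 genes (0.0348 to 0.0423), and mean levels of at least 10 CPM occur at high (*Setd7*) and low (*Hdac7*) rates.

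Level and rate were not aligned among the members. *Setd7* and *Hdac7*, both among the 4 members with a mean of at least 10 CPM, had the highest and the lowest mean rate of the 15, and their labeled rates did not overlap. The level of *Setd7* rested on labeled replicate 1 (45.1 CPM, against 11.9 and 4.99), whereas *Hdac7* had 13.2, 14.3 and 9.65 CPM. The Spearman correlation of level and rate was 0.082 across the 15 and 0.020 across 42 members.

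In several members the level differed more between replicate numbers than between labeled and unlabeled libraries. For *Setd7*, CPM of counted reads were 342, 141 and 144 in the labeled and 342 and 166 in the unlabeled libraries. *Kmt5a* behaved alike, with 275, 122 and 138, then 257 and 107. In both genes each library numbered 1 lay above all the others. *Hdac1* went the other way, with 18.4, 54.4 and 57.3, then 20.1 and 81.3, and its rate of 0.0341 in labeled replicate 1 was also below those of replicates 2 and 3. *Kat7* had 14.6, 51.9 and 65.2, then 14.1 and 37.1, and *Hdac7* had 100.3, 169 and 279, then 137 and 220. *Hdac2* was level in all 5 libraries, with 99.6, 100.4, 98.8, 102.6 and 95.4, although it serves in the same complexes as *Hdac1*.

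Of the 45 members tested for reads, both libraries numbered 1 lay above the other 3 in 13 (28.9%; 30% of all genes) and below them in 14 (31.1%; 22.7% of all genes). The first set held 7 methyltransferases, among them *Kmt2a*, *Kmt2e* and *Kmt5b*, 1 acetyltransferase (*Kat2b*), 1 demethylase (*Kdm1b*) and 4 deacetylases. The second held 5 acetyltransferases (*Kat2a*, *Kat5*, *Kat6a*, *Kat7*, *Kat8*), 4 demethylases, *Hdac1*, *Hdac7*, *Kmt2b*, *Setd1b* and *Setd2*. The summed macrophage markers were also lower in the libraries numbered 1 (57.7 and 60.8 CPM of counted reads, against 79.0 to 105), but single markers differed. *Lyz2* had 4, 33 and 9 reads with S4U and 6 and 30 without, and *Cd68* had 26, 21 and 6, then 37 and 11. The cardiomyocyte markers were lower too (0.634 and 2.17, against 5.93 to 8.03), on few reads (*Tnnt2* 1, 6 and 2, then 3 and 6). CF isolation had depleted immune and endothelial cells by magnet and pelleted cardiomyocytes. The part of other cell types in these levels was not tested.

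**Figure D4:**
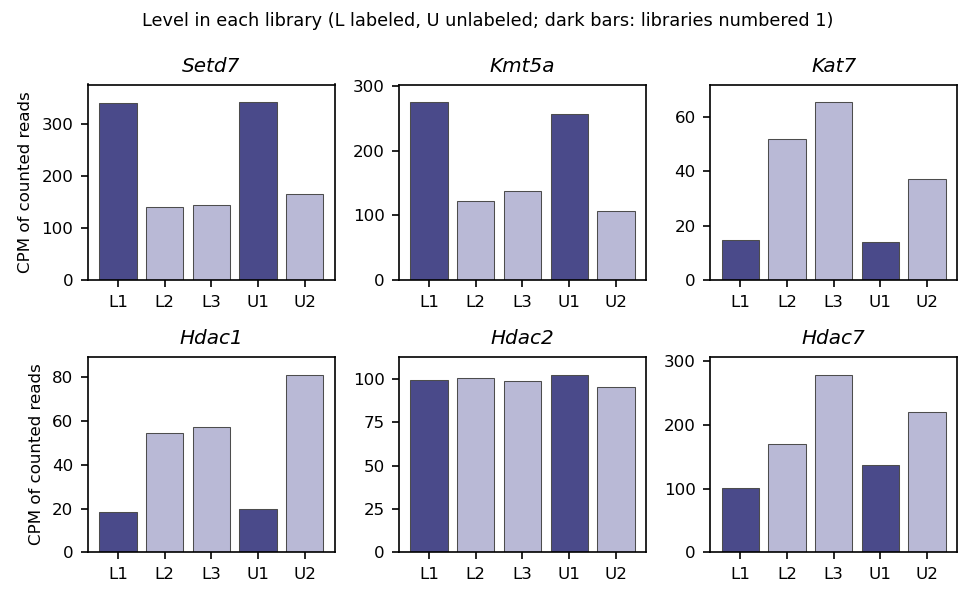
Level in CPM of counted reads (vertical axis, from 0) of 6 members in labeled libraries L1 to L3 and unlabeled libraries U1 and U2; dark bars are the libraries numbered 1. *Setd7* and *Kmt5a* are high in both dark bars, *Kat7*, *Hdac1* and *Hdac7* are low in both, and *Hdac2* stays between 95.4 and 102.6.

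In the fit by group alone, no change of reads with S4U was detected for any member. By edgeR (quasi-likelihood test, Benjamini-Hochberg), 0 of 45 members had an adjusted p below 0.05, as did 0% of 9806 genes. At an unadjusted p below 0.05 the count was also 0 members, compared with 5.97% of genes (2.85% higher and 3.12% lower in the labeled libraries). DESeq2 called 0 members, compared with 0.116% of genes. The log2 fold changes were above 0 in 23 members and below 0 in 22, with a median of 0.01 against 0.02 for all genes. The 8 members not tested, 2 of them writers (*Setd4* and *Kmt5c*), had too few reads.

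*Kat2b* had the most negative log2 fold change, -1.01 (SE 0.50, adjusted p = 0.907 from edgeR). Its CPM of counted reads was 60.9, 32.6 and 21.7 with S4U and 120.5 and 48.2 without, so the labeled and unlabeled values overlapped across replicate numbers, while the labeled value was lower at both shared numbers. *Kdm3a*, a demethylase known from hypoxia responses, had -0.80 (SE 0.43, adjusted p = 0.932 from edgeR), with 27.9, 16.7 and 9.88 against 33.1 and 37.1. It was 1 of 3 members, with *Kat6b* and *Kdm4c*, whose labeled values all lay below both unlabeled ones (13.1% of all genes). *Setd5* had -0.74 (SE 0.44, adjusted p = 0.964 from edgeR). At the other end, *Kat7* had 0.83 (SE 0.72) and *Kat2a* 0.65 (SE 0.59). On the interval used, *Hdac8* was the single member with all labeled values above both unlabeled ones (8.19% of all genes), with a log2 fold change of 0.24 (SE 0.36). Its separate interval chrX:101328244-101328751 had 17, 8 and 4 reads with S4U and 46 and 9 without, so the order did not hold there. The steadiest estimate was that of *Hdac2*, 0.09 (SE 0.24). With a block for the replicate number, edgeR called *Kat2b* (-0.78, adjusted p = 0.0041) and *Setd5* (-0.54, adjusted p = 0.0451), beside 11.7% of all genes. The blocked fit had 1 residual degree of freedom, and the labels tie no number to a preparation.

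**Figure D5:**
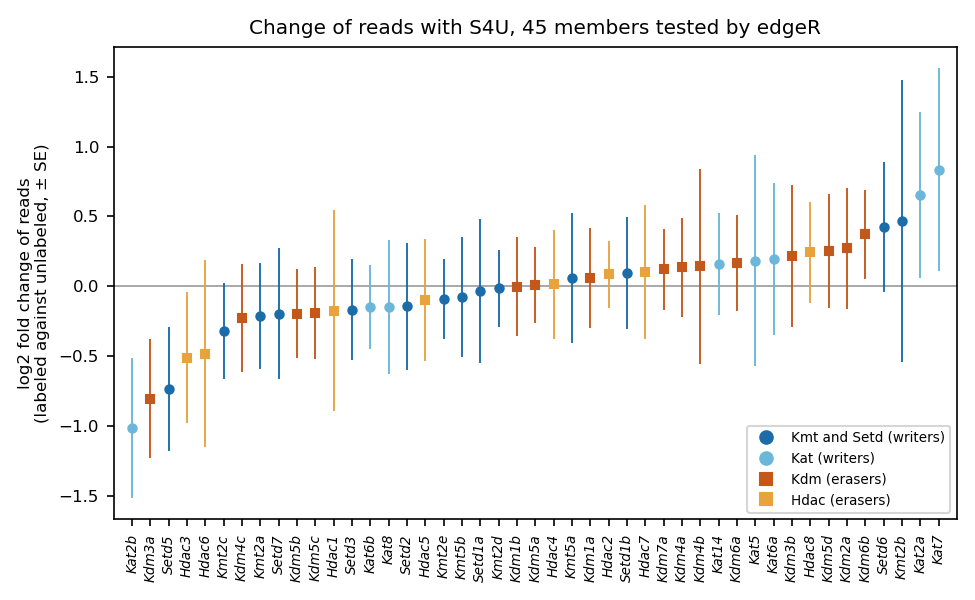
Log2 fold change of reads, labeled against unlabeled (vertical axis, ± SE from edgeR), of the 45 members tested, ordered by value; circles are writers and squares erasers. The values run from -1.01 (*Kat2b*) to 0.83 (*Kat7*), and no member had an adjusted p below 0.05 in this fit by group alone.

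Some members had a second interval apart from the one used. In 2 of them, chosen after their values were seen, rates could be set side by side. The *Kmt2c* interval used had 0.0387, 0.0381 and 0.0401, and the other (chr5:25504144-25505540) had 0.0444, 0.0549 and 0.0259 at 193 or more covered T positions. The upstream *Setd5* interval (chr6:113105754-113114213) had 0.0302, 0.0416 and 0.0339 at 5.34 CPM, against 0.0382, 0.0365 and 0.0430 at 6.04 CPM for the one used. In both genes the ranges overlapped.

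Related genes outside the name rule were measured in the same fits. All 25 tested of 29 other writers had a raised rate, as had 12 of 13 other erasers (the exception was *Sirt6*, on 38 covered T positions in a labeled library) and 48 of 48 tested cofactors of the enzyme complexes, of 49 listed, beside 95.2% of all genes. By edgeR no gene of the 3 lists had changed reads at an adjusted p below 0.05 (0% of all genes) or an unadjusted p below 0.05 (5.97%). The acetyltransferase *Ep300* had a rate of 0.0355 ± 0.0029 and its paralog *Crebbp* 0.0410 ± 0.0019. The subunits *Rbbp7* and *Rbbp4*, which bind *Hdac1* and *Hdac2* in NuRD and SIN3 complexes, had 0.0457 ± 0.0065 and 0.0414 ± 0.0018. Median rates of the deeply covered genes were 0.0408 for 9 other writers, 0.0390 for 4 other erasers and 0.0376 for 24 cofactors, all within the quartiles of all genes.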

How the data were processed

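The authors moved unique molecular identifiers to the read headers, mapped QuantSeq 3′ FWD reads with SLAM-DUNK 0.4.3 (mm39), collapsed duplicates (UMI-tools) and counted on 3′ UTR intervals. The authors deposited, per library and interval, unnormalized counts (reads, reads with a T>C conversion, covered T positions, conversions), the conversion rate as a fraction of covered T positions, and CPM relative to a read number above the counted reads.

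Repeated rows were dropped. The labeled and unlabeled rates entered a beta-binomial likelihood-ratio test (1 shared overdispersion, chi-square with 1 degree of freedom, approximate with 5 libraries) on every interval with a covered T in each library. Reads were compared with edgeR (TMM, filterByExpr, quasi-likelihood test) on 1 interval per gene. Intervals and limits are exact 95% binomial, and a rate of 0 allows 3 conversions of the covered T positions, for counting error only. Exons, overlapping genes and sequences came from GRCm39; the strand setting of the counting is not given in the sources used here, so reads of genes overlapping on the other strand may be included. Both statistics were tested on simulated data, in which the beta-binomial test called unchanged features more often than its threshold and edgeR missed part of the changed genes.

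Members, lists and tests were chosen with earlier results of these data known. Genes named with full values were the 6 highest and 6 lowest rates at 500 or more covered T positions, the 6 highest levels, genes with changed reads (edgeR gave none), genes with separate intervals that are each covered as deeply (none), and 5 paralog pairs. Other members given where their class or the read changes are described were chosen after their values were seen. The closing section gives the alternatives, among them DESeq2 1.42.0 and limma 3.58.1. The tests ran in edgeR 4.0.16 on R 4.3.3, and in Python 3.11.15 with scipy 1.17.1, numba 0.67.0, pandas 2.3.3 and numpy 2.4.6. Figures were drawn in matplotlib 3.10.9.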

Additional observations from a re-analysis of the deposited data

How the results depend on the processing

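Raised rates were called for 45 to 48 members under the alternatives other than a minimum of 100 covered T positions in every library, where all 42 members tested were called (limma on log odds with a pseudocount of 0.5 gave 47, and leaving out single libraries gave 45 to 48). Changed reads were called for 0 members under each alternative but the replicate block, under which edgeR called 2, *Kat2b* (log2 fold change -0.78, adjusted p = 0.0041) and *Setd5* (-0.54, adjusted p = 0.0451), beside 11.7% of all genes, with 1 residual degree of freedom. Without replicate 1 of both groups no member was called by edgeR, 3 had an unadjusted p below 0.05, and 169 genes were called higher and 202 lower. Deviations of same-numbered libraries correlated at 0.785 and 0.633, and labeled replicate 3 at 0.484 with unlabeled replicate 2, in 2 pairs that the labels do not tie to a preparation. The 2 unlabeled libraries deviate from their mean as mirror images, so each correlation has the opposite sign with the other unlabeled library. The values therefore describe 1 contrast and not separate agreements of pairs. The median rate of erasers was 0.0363 at 1000 or more covered T positions, which 4 erasers reached. Summing over intervals gave median levels of 5.76 CPM for writers and 3.01 CPM for erasers and a ratio of 1.91, since nested intervals count the same reads repeatedly. The ratio was 1.97 in CPM of counted reads, as a ratio of medians of gene means over the libraries, although the ratio within a library is the same on both scales, and 1.79 without replicate 1 of both groups (leaving out both libraries numbered 1 was chosen after seeing the data), and 1.19 to 1.79 when single labeled libraries were left out. Of the other values of the comparisons, 61 stayed within the spread between libraries or within 1.5 times the count. Some of these could not move. Leaving out 6 members of debated or non-histone substrate, such as *Setd3* and *Hdac6*, removed none with 500 or more covered T positions. The median rates of writers and erasers were thus unchanged by construction there. For single genes and classes 412 stayed and 22 moved, 12 of these by summing over intervals and 7 by the share of reads with a conversion. The 412 include read fold changes of 18 named genes under each alternative. These counted as stayed wherever the adjusted p from edgeR or DESeq2 was at least 0.05, whatever the size of the change. Depth limits 38 of the 53 members to fewer than 500 covered T positions in a labeled library, where a single conversion moves a rate by over 0.002.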
